A study of Arabidopsis thaliana with 12 samples.

Results

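Plants of the siz1-3 mutant and of the wild type Col-0, both dehydrated for 2 h, were compared in Arabidopsis thaliana on ATH1 GeneChip arrays. The comparison takes 6 of the 12 arrays of the series by their titles: 3 of dehydrated siz1-3 and 3 of dehydrated Col-0, all from plants labelled 3 weeks old. The other 6 arrays, 3 of siz1-3 and 3 of Col-0 under control conditions (also 3 weeks, with 1 Col-0 array labelled 21 days), entered the same fit and show whether a genotype difference was already there without dehydration. No transgene or agent is named in the labels for any group, siz1-3 is a single insertion allele, and the tissue is not named. RCA and LHCB4.1, genes for leaf photosynthesis proteins, gave signals of 4383 or more on all 6 arrays.

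The product of SIZ1 is a SUMO E3 ligase, which helps to attach the small protein SUMO to other proteins, many of them nuclear. SUMO conjugates accumulate rapidly when plants meet heat, drought or oxidative stress, and much of that conjugation depends on SIZ1. Mutants in SIZ1 are known as dwarf plants with a raised content of the defence hormone salicylic acid and an altered response to drought, cold and phosphate shortage.

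Each array had been scaled by the authors to the same trimmed mean, and its median signal was between 65.5 and 66.0 in dehydrated siz1-3 and between 71.3 and 72.7 in dehydrated Col-0. Across probe sets, arrays of one dehydrated genotype correlated at 0.980 to 0.991 and arrays of the 2 genotypes at 0.942 to 0.948 on the log2 scale. For actin, the control for RNA quality, signal at the 3' end over that at the 5' end was 16.9 ± 1.73 in siz1-3 and 16.3 ± 3.65 in Col-0 (SD, n = 3 each). Signals are linear, fold changes are siz1-3 minus Col-0 on the scale of log2(signal + 16), which understates changes of dim probe sets, and ± after a fold change gives the fit's standard error. A probe set was called where limma's Benjamini-Hochberg adjusted p was under 0.05. Whether replicates came from separate plants is not stated in the labels. The p-values therefore cover only the spread between these arrays, which may be technical, and 3 arrays a group limit the precision.

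The brighter SIZ1 probe set read 81.5, 101 and 101 in siz1-3, against 392, 465 and 359.8 in Col-0. All 3 mutant arrays lay below all 3 wild-type arrays, with a log2 fold change of -1.93 ± 0.17 (adjusted p = 3.44e-06). The dimmer SIZ1 probe set ran the other way, at 60.3, 92.2 and 83.7 in siz1-3, against 34.2, 11.0 and 2.85 in Col-0, a log2 fold change of 1.67 ± 0.31 (adjusted p = 0.00143). A two-sided exact permutation test gave p = 0.1 for either probe set, as low as 3 arrays a group allow. The position of each probe set with respect to the insertion was not determined here. SAE1A, for a subunit of the SUMO-activating enzyme and the other measured member of a list of 14 SUMO pathway genes, was higher at 0.41 ± 0.11 (adjusted p = 0.0154). Without siz1-3 dehydration replicate 2 or Col-0 dehydration replicate 3 its adjusted p was 0.0501 and 0.053.

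Dehydrated siz1-3 differed from dehydrated Col-0 at 7165 of 22746 probe sets, or 31.5%. Of these, 2818 were higher (12.4% of those tested) and 4347 lower (19.1%), and after subtraction of array medians, which moved the median of all probe sets by 0.10, the split was 3440 higher and 3138 lower. The large differences leaned the other way: 1142 probe sets (5.02%) were at least 2-fold higher and 737 (3.24%) at least 2-fold lower. With a pseudocount of 1 these counts were 1385 and 1332. Probe sets that pair with 1 gene gave 13355 measured genes, of which 10.8% were called higher and 17.9% lower, and the counts of gene groups below are to be read against these shares. Over all probe sets the median log2 fold change was -0.10. For 44.9% of the probe sets the genotypes' arrays did not overlap. In these bulk samples, fewer cells of a type and less RNA per cell cannot be told apart.

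Of the 15 genes with the largest excess in siz1-3, 4 are described here, with roles in defence or calcium sensing. UGT76B1, SBT3.3 and CML41 had a symbol in the annotation, while F6'H1 was named from its locus code. No function was looked up for the rest, so these 4 do not describe the 15 as a whole. First was F6'H1 (AT3G13610), feruloyl-CoA 6'-hydroxylase, which makes the precursor of the antimicrobial coumarin scopoletin. Its signal was 1201, 1131 and 1187 in siz1-3, against 3.55, 5.59 and 24.1 in Col-0, a log2 fold change of 5.53 ± 0.30 (adjusted p = 1.08e-07). UGT76B1, a glucosyltransferase that acts on isoleucic acid and salicylic acid, read 1189, 1036 and 1158 in siz1-3, against 27.1, 33.3 and 32.3 in Col-0 (log2 fold change 4.61 ± 0.13, adjusted p = 1.07e-09). SBT3.3, a subtilisin-like protease gene known from immune priming, read 497, 534 and 493 in siz1-3, against 13.4, 14.9 and 17.2 in Col-0 (log2 fold change 4.07 ± 0.12, adjusted p = 1.62e-09). CML41, for a calmodulin-like protein, was at 1300.0, 1299 and 1296 in siz1-3, against 61.8, 68.3 and 84.3 in Col-0 (log2 fold change 3.92 ± 0.13, adjusted p = 6.14e-09). In each of these 4 genes the mutant arrays stood close together and far above a wild type that was dim.

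The other 11 of the 15 largest increases carry only a locus code here. AT3G13950 had a log2 fold change of 4.72, AT5G24210 of 4.57, AT4G00700 of 4.42, AT3G48650 of 4.29, AT5G44990 of 4.24 and AT1G13470 of 4.04. AT3G48640, AT3G47480, AT2G41730, AT1G57650 and AT1G51860 followed, from 3.92 down to 3.75. AT2G41730 was read by a probe set of a kind that can also bind related transcripts. At AT1G51860 and AT3G48650 no Col-0 array exceeded a signal of 2.40, so their folds rest on the pseudocount. Other folds of the 15 also moved widely over the alternative settings. F6'H1 ran from 4.05 to 7.01, AT5G44990 from 2.69 to 6.38, AT3G48640 from 2.45 to 5.61 and AT1G57650 from 2.34 to 5.70. The order of the 15 is therefore that of the main setting only.

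**Figure D1:**
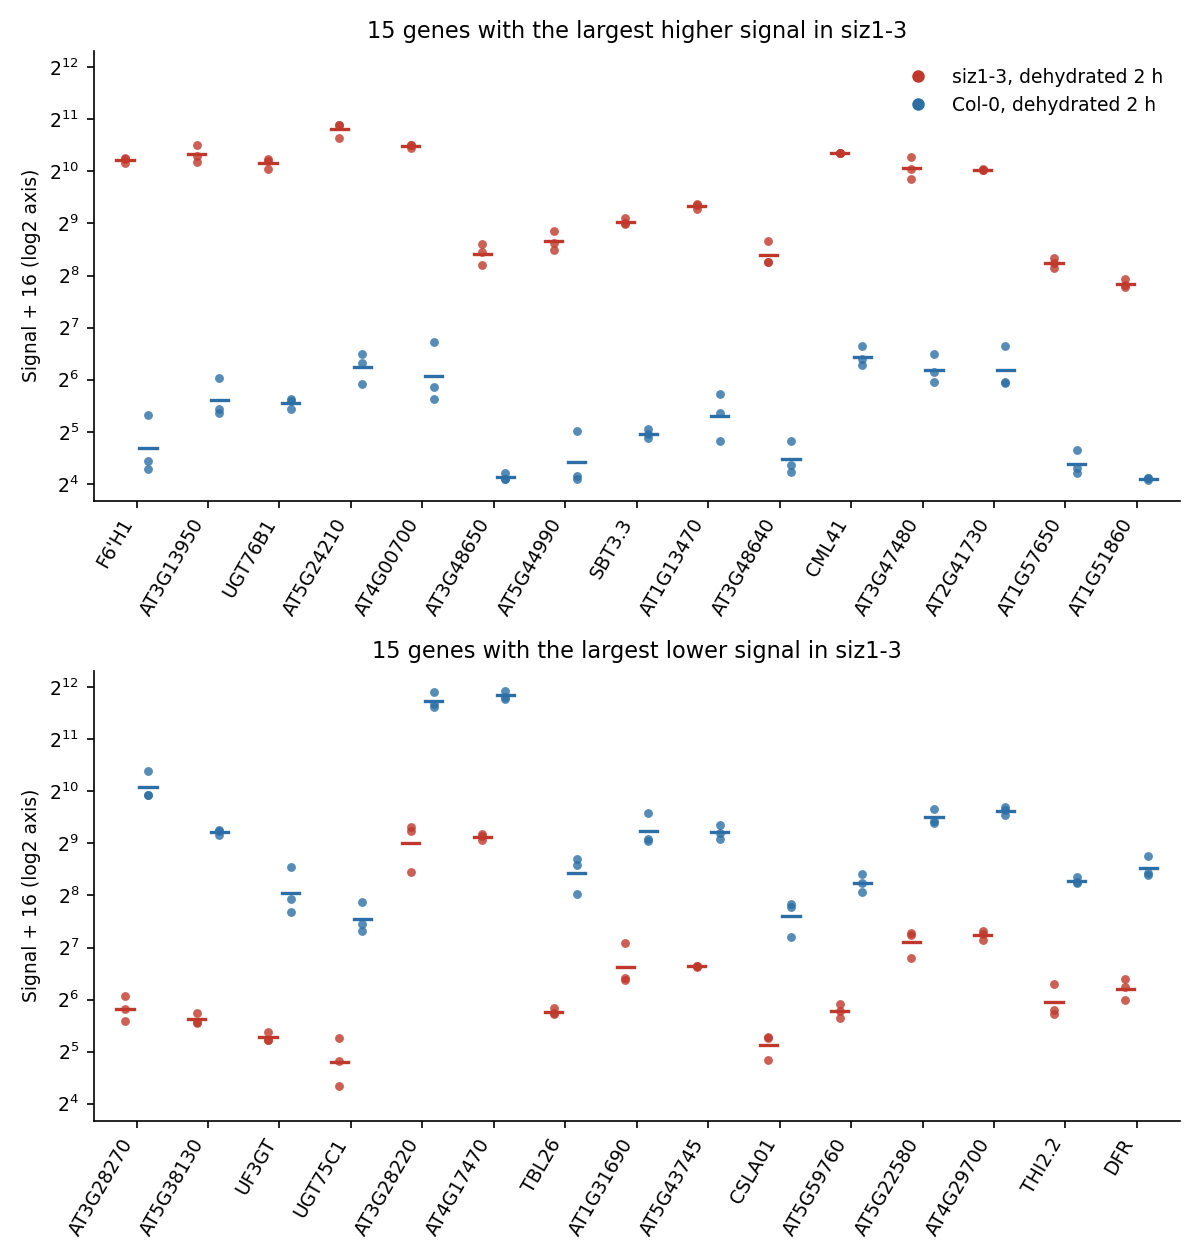
Signal plus 16 (log2 axis) in dehydrated siz1-3 (red, left of each pair) and dehydrated Col-0 (blue, right) for the 15 genes with the largest increases (top) and the 15 with the largest decreases (bottom). Points are single arrays and bars are means on the log scale. By the rule that chose these genes, the 3 arrays of one genotype lie beyond the 3 of the other.

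The measured genes of salicylic acid signalling and immunity were higher in siz1-3. Of 35 listed members 3 were measured, and all 3 were called higher, with a median log2 fold change of 1.83. WRKY53, a transcription factor gene of senescence and defence, read 850.3, 882 and 814 in siz1-3, against 102, 89.9 and 156 in Col-0 (log2 fold change 2.74 ± 0.19, adjusted p = 5.83e-07). SAG101, for a lipase-like partner of EDS1 in immunity, read 136, 154 and 129 in siz1-3, against 25.6, 26.8 and 30.5 in Col-0 (log2 fold change 1.83 ± 0.12, adjusted p = 3.32e-07). GRX480, a glutaredoxin gene induced by salicylic acid, had 2279, 2491 and 2499 in siz1-3, against 1337, 1063 and 1307 in Col-0 (log2 fold change 0.97 ± 0.15, adjusted p = 0.000408). The groups did not overlap for any of the 3, and of the 7 measured WRKY genes 3 were higher and 1 lower. Besides WRKY53 the higher ones were WRKY47 at 2.17 and WRKY6, a regulator of senescence, at 1.76, while WRKY20 was lower at -0.43.

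Calcium-related genes and a trio of ubiquitin ligase genes were also higher. Of 9 measured genes for calmodulin-like and other calcium-binding proteins, which sense calcium, 5 were higher and 0 lower, with a median of 1.01. CML37 read 728, 652 and 699 in siz1-3, against 46.1, 37.6 and 51.9 in Col-0 (log2 fold change 3.54 ± 0.24, adjusted p = 5.37e-07), and CML23, CML42 and CML38 had log2 fold changes of 1.29, 1.27 and 1.01. Of 8 genes for glutamate receptor-like cation channels, 5 were higher and 1 lower, with a median of 0.79. The neighbouring genes GLR2.7 and GLR2.8 were at 2.30 and 2.08, and whether their probe sets read each other's transcripts was not tested. Of 9 U-box ligase genes, 3 were higher and 1 lower: PUB22, PUB23 and PUB24, known as a trio that dampens immune responses, had log2 fold changes of 1.27, 1.87 and 1.92. PUB26 was lower at -0.74, from signals of 14.1, 3.86 and 19.4 in siz1-3 and 26.3, 29.6 and 35.2 in Col-0, and its call ended in 5 alternatives, among them those without siz1-3 dehydration replicate 2 (adjusted p = 0.0991) or Col-0 dehydration replicate 2 (0.0513) or 3 (0.0709).

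CHI, which encodes a chitinase, was at 8719, 8752 and 9534 in siz1-3, against 1301, 1371 and 2412 in Col-0 (log2 fold change 2.46 ± 0.22, adjusted p = 4.06e-06), and its neighbour AT2G43580 was at 1065, 1257 and 1370.3 in siz1-3, against 128, 106 and 132 in Col-0 (log2 fold change 3.17 ± 0.16, adjusted p = 6.22e-08). SBT3.5, which stands near SBT3.3 in the genome, had a log2 fold change of 2.64 ± 0.16. Of 22 β-glucosidase genes 3 were higher and 5 lower, among them BGLU31 (2.75 ± 0.22, from 1.43 to 4.98 over the alternative settings) and BGLU27 (1.88 ± 0.28) above and BGLU33 (-1.46 ± 0.18) below. The sign was mixed in that family, and of 12 thionin and defensin genes, for small antimicrobial peptides, 3 were lower and 1 was higher. The higher one was LCR67, a defensin-like gene, with 22.2, 155 and 161 in siz1-3, against 1.82, 2.15 and 14.1 in Col-0 (log2 fold change 2.30 ± 0.63, adjusted p = 0.015). It lost the call under a floor of 32 (adjusted p = 0.107) and without siz1-3 dehydration replicate 2 (0.0649) or 3 (0.0659), while without Col-0 dehydration replicate 3 2 genes of the family were called higher. The thionin gene THI2.2 had 37.0, 40.0 and 62.8 in siz1-3, against 311, 288 and 287 in Col-0, a fold change of -2.34 ± 0.17 (adjusted p = 8.72e-07).

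Single genes of protein folding, autophagy and vacuolar sorting were higher. Of 3 measured members of a list of 19 heat shock and folding genes, 1 was higher and 0 lower. That was ATERDJ3B, for a chaperone partner in the endoplasmic reticulum, which read 1074, 1141 and 1108 in siz1-3, against 378, 378 and 521 in Col-0 (log2 fold change 1.36 ± 0.14, adjusted p = 1.31e-05). BZIP60 and BZIP28, transcription factors of the unfolded protein response in that compartment, had log2 fold changes of 0.97 ± 0.12 and 0.88 ± 0.14. They were the 2 of 22 bZIP genes called higher (4 after subtraction of array medians), a share near the 10.8% of all measured genes. BZIP17 was not called (0.14, adjusted p = 0.416). Hsp70-2, a chaperone gene, was at 2.23 ± 0.21. Of 8 measured autophagy genes with ATG names, all but ATG3 encode ATG8, the protein that coats autophagosomes. Of these 8 genes 4 were higher and 0 lower, and ATG3 was not called. ATG8H read 1161, 1469 and 1297 in siz1-3, against 493, 529 and 401 in Col-0 (log2 fold change 1.44 ± 0.17, adjusted p = 3.66e-05) and ATG8E had 0.83. Of 10 VPS genes, whose proteins sort cargo to the vacuole, 5 were higher and 1 lower, with VPS60.1 at 1.14.

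The measured anthocyanin genes were lower in siz1-3 after dehydration. All 5 measured members of a list of 24 flavonoid and anthocyanin genes were called lower in siz1-3, each by more than 2-fold, with a median log2 fold change of -2.32 against -0.10 for all probe sets. DFR, dihydroflavonol 4-reductase, the step that commits flavonoids to anthocyanin, read 67.9, 47.7 and 59.9 in siz1-3, against 416, 321 and 328 in Col-0 (log2 fold change -2.32 ± 0.19, adjusted p = 2e-06). UF3GT, a sugar transferase that decorates anthocyanins, read 21.5, 21.3 and 25.5 in siz1-3, against 189, 227 and 357 in Col-0 (log2 fold change -2.77 ± 0.23, adjusted p = 2.88e-06). UGT75C1, the anthocyanin 5-O-glucosyltransferase, read 12.1, 22.2 and 4.33 in siz1-3, against 158, 143 and 219 in Col-0 (log2 fold change -2.74 ± 0.44, adjusted p = 0.000461). UGT78D2 and UGT78D1, which attach glucose and rhamnose to flavonoids, were at -1.53 ± 0.15 and -1.52 ± 0.14. No mutant array reached the lowest wild-type array in any of the 5.

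Under control conditions none of these 5 genes was called between the genotypes, and for all 5 the interaction, the genotype difference after dehydration minus that under control conditions, was called. For DFR the control arrays read 67.9, 77.9 and 60.9 in siz1-3, against 43.1, 72.7 and 38.2 in Col-0, and the interaction was -2.68 ± 0.27 (adjusted p = 0.000148). The control difference of DFR, 0.36, was 0.58 and passed without Col-0 control replicate 2 (adjusted p = 0.0352). For UF3GT they read 32.8, 29.6 and 25.0 in siz1-3, against 28.4, 41.4 and 14.7 in Col-0, with an interaction of -2.85 ± 0.33 (adjusted p = 0.000371). That of UGT75C1 was -3.19 ± 0.62 (adjusted p = 0.00812), that of UGT78D2 -1.68 ± 0.21 (adjusted p = 0.00048) and that of UGT78D1 -1.64 ± 0.20 (adjusted p = 0.000506). Chosen after their values were seen, CHIL, for a helper protein of chalcone synthesis, had a difference of -1.81 ± 0.22 (adjusted p = 5.42e-05) after dehydration and AT5MAT, an anthocyanin malonyltransferase gene, -1.52 ± 0.31 (adjusted p = 0.00264).

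**Figure D2:**
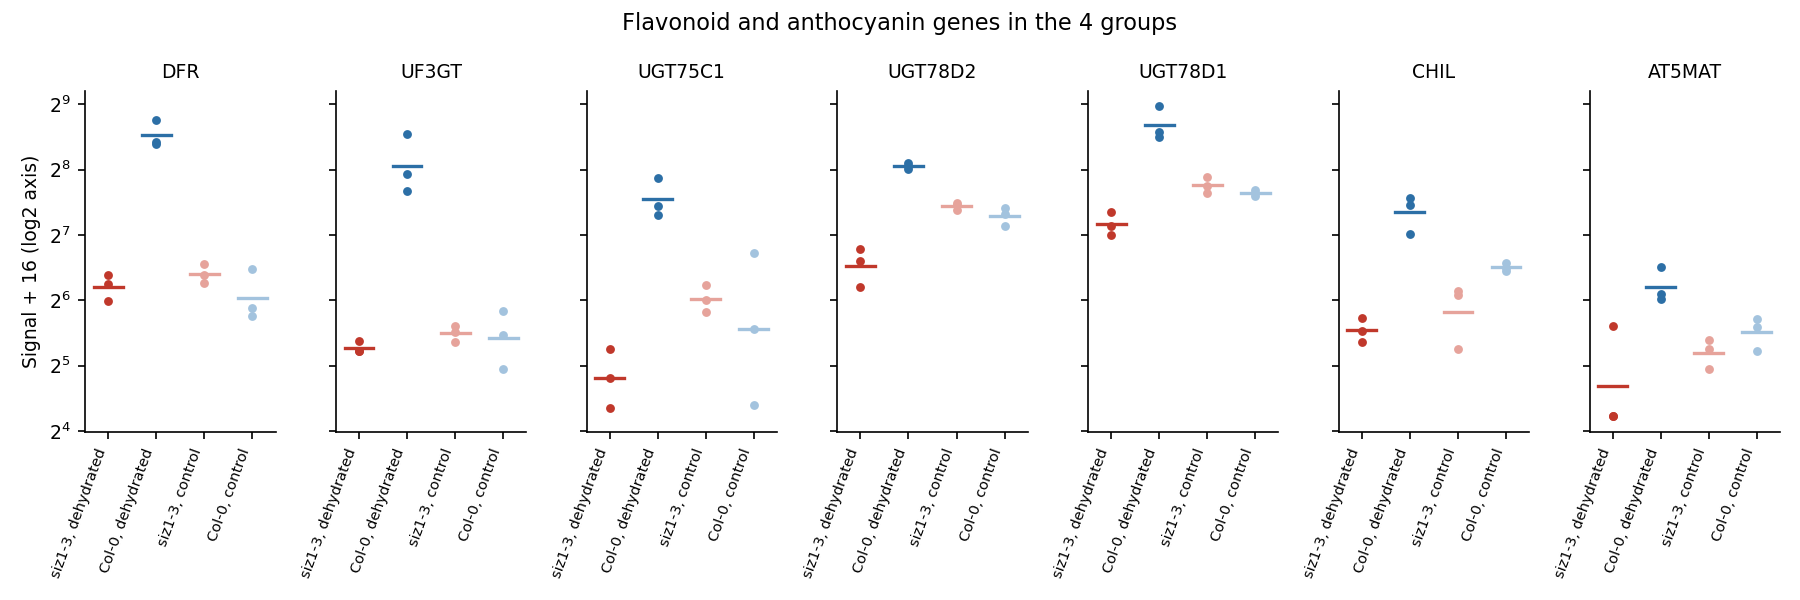
Signal plus 16 (log2 axis) of 7 flavonoid and anthocyanin genes in dehydrated siz1-3, dehydrated Col-0, control siz1-3 and control Col-0 (left to right in each panel). Points are arrays and bars are means on the log scale. In every panel the 3 dehydrated siz1-3 arrays lie below the 3 dehydrated Col-0 arrays.

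The single largest decrease was at AT3G28270, which has no name here. It read 32.02, 40.4 and 51.5 in siz1-3, against 956, 962 and 1325 in Col-0, a log2 fold change of -4.26 ± 0.32 (adjusted p = 1.11e-06). AT3G28220 read 334, 621 and 584 in siz1-3, against 3109, 3239 and 3826 in Col-0 (log2 fold change -2.73 ± 0.32, adjusted p = 3.65e-05). For both genes every mutant array lay below every wild-type array. AT4G17470, AT1G31690, AT5G43745, AT5G59760, AT5G22580 and AT4G29700, also without a name, had log2 fold changes of -2.71, -2.61, -2.57, -2.46, -2.40 and -2.39. The other 7 of the 15 largest decreases are AT5G38130, UF3GT, UGT75C1, TBL26, CSLA01, THI2.2 and DFR, described with their groups.

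UDP-glycosyltransferase genes, whose products attach sugars to small molecules, went both ways. Of 52 measured, 11 were higher and 14 lower, from -2.77 to 4.61 on the log2 scale, with a median of -0.07. UF3GT, which sets the lower end, UGT78D2 and UGT78D1 are 3 of the 14 and were already counted with the anthocyanin genes. UGT73D1 read 236, 282 and 307 in siz1-3, against 3.01, 1.96 and 14.3 in Col-0 (log2 fold change 3.73 ± 0.22, adjusted p = 2.01e-07) and UGT71B5 was higher at 2.42 ± 0.33. The fold change of UGT73D1 ran from 2.27 to 5.60 over the alternative settings. Cytochrome P450 genes were similarly split, with 3 of 24 higher and 3 lower (6 higher with quantile normalization, and 5 with array medians subtracted or without siz1-3 dehydration replicate 1 or Col-0 dehydration replicate 3). CYP71B23 was at 2.09 and CYP84A4 at -1.66.

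The cold and dehydration genes did not share one direction. COR15A and COR15B, neighbouring genes for proteins that protect chloroplast membranes during freezing and drying, were much lower in siz1-3. COR15A read 2572, 2828 and 2927 in siz1-3, against 11548, 12554 and 13967 in Col-0 (log2 fold change -2.18 ± 0.16, adjusted p = 9.94e-07), and COR15B read 1113, 1215 and 1214 in siz1-3, against 6471, 7509.9 and 3869 in Col-0 (log2 fold change -2.26 ± 0.20, adjusted p = 4.12e-06). They were the 2 measured of 13 listed cold genes, and their probe sets may read each other's transcripts, which was not tested. Of 4 measured members (of 37) of the dehydration and abscisic acid list, 1 was lower and 0 higher. That was LEA4-5, for a late embryogenesis abundant protein, with 379, 403 and 418 in siz1-3, against 1036, 894 and 1072 in Col-0 (log2 fold change -1.29 ± 0.29, adjusted p = 0.00506), a call that ended with a pseudocount of 1 (adjusted p = 0.0632).

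Of the dehydration and abscisic acid list, the dehydrin genes COR47 and LTI30 had overlapping groups. COR47 read 14425, 14682 and 15868 in siz1-3, against 14643, 17169 and 19209.5 in Col-0, and LTI30 read 3548, 4292 and 4110.1 in siz1-3, against 3921, 3993 and 4329 in Col-0, with log2 fold changes of -0.17 ± 0.13 (adjusted p = 0.354) and -0.04 ± 0.12 (adjusted p = 0.856), which both changed sign with quantile normalization. Under control conditions both were called lower in siz1-3, at -1.86 and -1.31, and the interaction was called for both, at 1.69 ± 0.18 and 1.27 ± 0.17. PRODH2, a proline dehydrogenase gene, had 0.41 ± 0.22 (adjusted p = 0.179) and passed on the 6 dehydrated arrays alone (0.0384), with a pseudocount of 64 (0.0474) and without Col-0 control replicate 1 (0.0464). LEA27 (AT2G46140), of the late embryogenesis abundant group, was higher instead, at 1341, 1425 and 1469 in siz1-3, against 156, 138 and 124 in Col-0 (log2 fold change 3.20 ± 0.14, adjusted p = 2.69e-08). Of 7 measured genes of that group, 1 was higher and 2 were lower, LEA4-5 and AT1G54410 (-0.37, adjusted p = 0.0263).

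Single genes of cell wall growth were lower, but the share of expansin genes called lower was near that of all measured genes. Expansins loosen the wall, and of 19 measured 4 were lower and 0 higher (1 higher after either rescaling and without siz1-3 dehydration replicate 1). EXPA16 read 468, 361 and 338 in siz1-3, against 1139.5, 1163 and 1309.9 in Col-0 (log2 fold change -1.60 ± 0.14, adjusted p = 4.22e-06), and EXPA4 read 236, 191 and 175 in siz1-3, against 501, 525 and 574 in Col-0 (log2 fold change -1.35 ± 0.16, adjusted p = 4.88e-05). EXPB3 was at -1.21 ± 0.17, and EXPA8, dim after dehydration, at -0.62 ± 0.29 (adjusted p = 0.125). Without siz1-3 dehydration replicate 2 or Col-0 dehydration replicate 2, EXPA8 passed (adjusted p = 0.0233 and 0.0465). Xyloglucan endotransglucosylase genes, which cut and rejoin wall polymers, were divided. Of 10 measured, XTH16 (-1.10 ± 0.17) and XTH32 (-1.40 ± 0.20) were lower and 4 were higher (2 without siz1-3 dehydration replicate 3, or Col-0 dehydration replicate 2 or 3). The neighbours XTH18, at 313, 291 and 286 in siz1-3, against 77.8, 38.2 and 81.6 in Col-0 (log2 fold change 1.98 ± 0.26, adjusted p = 9.76e-05), and XTH19 (log2 fold change 0.93 ± 0.26, adjusted p = 0.0175) were among the higher ones, and the call of XTH19 ended with a pseudocount of 1 (adjusted p = 0.166) and without siz1-3 dehydration replicate 2 (0.0713) or Col-0 dehydration replicate 3 (0.0717).

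TBL genes encode proteins that acetylate wall polysaccharides. Of 22 measured, 8 were lower and 0 higher, with a median of -0.36, but the count was 4 with quantile normalization and 3 with array medians subtracted. Leaving out siz1-3 dehydration replicate 3 or Col-0 dehydration replicate 1 also left 3, and leaving out Col-0 dehydration replicate 2 left 5. TBL26, a mannan acetyltransferase gene, read 37.2, 41.2 and 37.4 in siz1-3, against 244, 397 and 370.1 in Col-0 (log2 fold change -2.67 ± 0.24, adjusted p = 5.45e-06), and TBL38 and TBL25 were at -1.52 and -1.05. CSLA01, of the family that makes the mannan backbone, had 12.7, 22.6 and 23.1 in siz1-3, against 204, 214 and 131 in Col-0 (log2 fold change -2.47 ± 0.27, adjusted p = 2.67e-05). Of 9 genes for tubulins and kinesins 5 were lower and 0 higher (3 with array medians subtracted, and 3 on leaving out a siz1-3 dehydration array or Col-0 dehydration replicate 1 or 2). TUB6, TUB5 and TUB1 were at -1.18, -0.94 and -0.91, and TUB7, which lost its call in those settings, at -0.42.

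Sugar transport and secreted peptidases also differed. Of 16 genes for SWEET and related sugar transporters, which carry sugars across membranes, 6 were lower and 0 higher (1 without Col-0 dehydration replicate 3), with a median of -0.38. SWEET17, a vacuolar fructose transporter gene, read 177, 190.3 and 167 in siz1-3, against 727, 745 and 717 in Col-0 (log2 fold change -1.94 ± 0.12, adjusted p = 3.32e-07). SWEET11, which exports sucrose towards the phloem, read 902, 871 and 760.1 in siz1-3, against 1528, 1623 and 1765 in Col-0 (log2 fold change -0.95 ± 0.12, adjusted p = 5.61e-05), and SWEET1 and SWEET16 were at -1.02 and -0.88. Of 29 serine carboxypeptidase-like genes, 9 were lower and 1 higher, with SCPL27 at -1.32. For the 4 named SWEET genes all mutant arrays lay below all wild-type arrays.

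Photosynthesis genes of the nucleus were modestly lower. All 4 measured members of a list of 28 were called lower, with a median of -0.51. LHCB4.2, for an antenna protein of photosystem II, had 819, 756 and 790.5 in siz1-3, against 2033, 1674 and 2212 in Col-0 (log2 fold change -1.30 ± 0.13, adjusted p = 9.69e-06). PRK, phosphoribulokinase of the Calvin cycle, was at -0.58 ± 0.13, RCA, rubisco activase, at -0.45 ± 0.10 and LHCB4.1 at -0.39 ± 0.11. The LHCB4.1 call ended with quantile normalization (adjusted p = 0.216), with array medians subtracted (0.0725) and without siz1-3 dehydration replicate 2 (0.0691) or Col-0 dehydration replicate 2 (0.0549). PSBY and PSBW, small photosystem II proteins, were at -0.73 and -0.47. LHCB4.3, a relative of LHCB4.2, was higher instead, with 331, 269 and 326 in siz1-3, against 121, 112 and 115 in Col-0 (log2 fold change 1.29 ± 0.13, adjusted p = 1.04e-05).

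Signals of genes encoded in the chloroplast were lower as a group but unevenly over the mutant arrays. How fully the RNA labelling captured transcripts of the chloroplast was not tested, so these signals need not follow their levels. Of 69 measured, 31 were lower and 0 higher, 17 of them at least 2-fold lower, with a median of -0.64. The summed signal of the 69 was 85318, 78547 and 58679.7 in siz1-3 replicates 1 to 3, against 113348, 114338 and 109853 in Col-0. Set against each gene's mean in Col-0, the median log2 deviation was -0.33, -0.49 and -0.998 in the siz1-3 arrays and between -0.05 and 0.06 in those of Col-0. Replicate 3 of siz1-3 was the lowest, and without it 17 genes were called lower instead of 31. Over the other settings the count ran from 24 to 40.

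The gene for the alpha subunit of ATP synthase, atpA, read 2250.2, 1530.3 and 496 in siz1-3, against 6188, 5139.8 and 3451 in Col-0 (log2 fold change -1.98 ± 0.46, adjusted p = 0.00578), and atpF, another subunit gene of that enzyme, was at -1.51 ± 0.34. ndhJ, of the NDH complex, read 253, 162 and 75.5 in siz1-3, against 747, 634 and 366 in Col-0 (log2 fold change -1.81 ± 0.38, adjusted p = 0.00314), and rps2, a ribosomal protein gene, was at -1.56 ± 0.30. For these 4 genes all mutant arrays lay below all wild-type arrays. Under control conditions 15 of the 69 were lower and 0 higher, with summed signals of 94750.4, 84733 and 69852 in siz1-3, against 118029, 111070.0 and 118955 in Col-0.

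**Figure D3:**
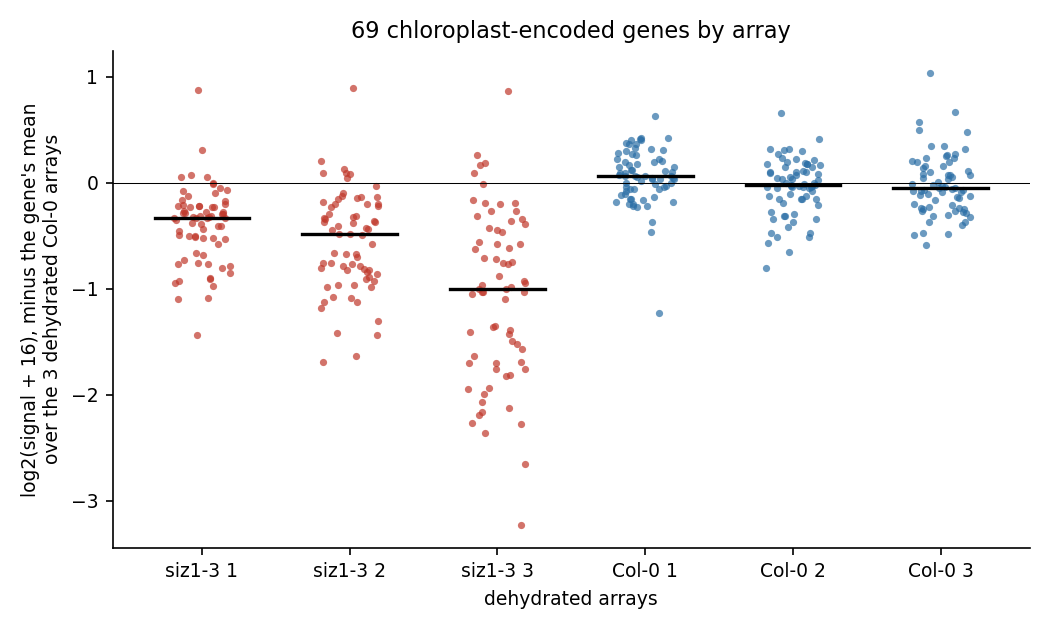
Deviation of 69 chloroplast-encoded genes on each dehydrated array from the gene's mean over the 3 dehydrated Col-0 arrays, on the scale of log2(signal + 16). Points are genes and bars are medians, which lie at -0.33, -0.49 and -0.998 for siz1-3 replicates 1 to 3 and near 0 for the Col-0 arrays.

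Hormone genes outside the salicylic acid list gave single results. WES1 (GH3.5), for an enzyme that conjugates auxin and salicylic acid to amino acids, read 725, 874 and 796 in siz1-3, against 284, 310.2 and 223 in Col-0 (log2 fold change 1.51 ± 0.14, adjusted p = 6.72e-06). Its relative GH3.3 was higher at 0.53 ± 0.17 (adjusted p = 0.03), a call that ended on the 6 dehydrated arrays alone (adjusted p = 0.0902). It also ended without siz1-3 dehydration replicate 2 (0.104) or 3 (0.0649), or without Col-0 dehydration replicate 3 (0.0843), which also brought the fold change to 0.30. IAA29, an auxin response repressor gene, was lower at -0.75 ± 0.18. Of 4 measured jasmonate and ethylene genes none was called. THI2.1, a jasmonate-induced thionin gene, had -1.29 ± 0.54 (adjusted p = 0.09), and ORA47, an activator of jasmonate synthesis, read 276, 272 and 221 in siz1-3, against 185, 182 and 223 in Col-0 (log2 fold change 0.35 ± 0.18, adjusted p = 0.171). Chosen after their values were seen, JMT, for the enzyme that makes methyl jasmonate, was at -1.19 ± 0.31 (adjusted p = 0.00996) and BSMT1, its relative acting on salicylic and benzoic acid, at -1.60 ± 0.30 (adjusted p = 0.00137). Both calls ended with a pseudocount of 1 (adjusted p = 0.224 and 0.0813). THI2.1 passed over the upper 60% of probe sets (adjusted p = 0.0382) and without Col-0 dehydration replicate 1 (0.0448).

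Wax and clock genes were each represented by few members. WSD1, a wax ester synthase gene of stems and leaves, was lower at 35.3, 53.5 and 57.5 in siz1-3, against 121, 147 and 99.2 in Col-0 (log2 fold change -1.10 ± 0.19, adjusted p = 0.000937), and DEWAX (AT5G61590), which represses wax synthesis, was higher at 170.0, 224 and 226 in siz1-3, against 145, 126 and 121 in Col-0 (log2 fold change 0.59 ± 0.13, adjusted p = 0.00453). GI, a clock gene that promotes flowering, was lower at -0.77 ± 0.17 (adjusted p = 0.00336). Among markers of other tissues, PYK10, a β-glucosidase gene of roots, read 477, 457 and 498 in siz1-3, against 712, 1064 and 1116 in Col-0 (log2 fold change -0.96 ± 0.15, adjusted p = 0.000438), 1 of 3 measured root markers called. The other 2, EXPA7 (-0.18, adjusted p = 0.777) and EXPA18 (0.51, adjusted p = 0.0572), had signals of at most 27.2 on the 6 arrays. The summed signal of the 3 root markers lay between 473.5 and 515.4 in siz1-3 and between 717.6 and 1144.9 in Col-0. Nearly all of that sum is PYK10, so it adds little to the PYK10 result. The part of tissue make-up in the results was not tested. None of 3 guard cell lineage markers was called. No listed seed or flower marker was paired with a probe set by the platform annotation, which leaves 8730 probe sets without a gene.

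Most of the large increases were also found between the genotypes under control conditions. Of the 1142 probe sets at least 2-fold higher, 805 (70.5%) were also called higher in siz1-3 under control conditions, 25 were called lower there and 312 were not called. Of the 737 at least 2-fold lower, 364 (49.4%) were also called lower, 7 were called higher and 366 were not called. The 2 comparisons share no arrays, and 17.4% of all probe sets were called under control conditions, 8.9% higher and 8.49% lower. At least 2-fold calls made up 3.66% and 1.77% there. The log2 fold change of SBT3.3 was 4.07 after dehydration and 3.64 under control conditions, and that of AT4G00700 was 4.42 and 4.21. On the lower side THI2.2 had -2.34 after dehydration and -2.41 under control conditions, and COR15B had -2.26 and -1.98. Across probe sets the 2 sets of fold changes correlated at 0.643, as a description over features of 2 separate sets of arrays.

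The interaction was called for 2003 probe sets, 8.81% of those tested, with 3.84% more positive and 4.96% more negative. That lean turned with the scaling: 936 were more positive and 858 more negative with quantile normalization, and 1229 and 637 with array medians subtracted. Interactions of at least 2-fold made up 2.29% and 1.92%. Among the 1142 large increases it was called with the greater difference after dehydration for 392 and with the smaller for 58. Among the 737 large decreases these counts were 353 and 7. Both sets were chosen by their difference after dehydration, which is also part of the interaction. That choice favours the greater difference after dehydration, so these counts do not show that dehydration enlarges genotype differences. AT1G76470 read 1258, 1428 and 1333 in siz1-3, against 71.8, 78.4 and 194 in Col-0 after dehydration, and 16.6, 13.6 and 27.9 in siz1-3, against 29.3, 16.4 and 20.4 in Col-0 under control conditions, an interaction of 3.60 ± 0.40 (adjusted p = 0.000264). AT4G38410 read 3357, 3825 and 3853 in siz1-3, against 426, 406 and 249 in Col-0 after dehydration, and 20.8, 38.6 and 26.5 in siz1-3, against 44.5, 39.6 and 18.7 in Col-0 under control conditions (interaction 3.48 ± 0.34, adjusted p = 0.000142). On the lower side AT5G38130 read 37.9, 30.7 and 31.5 in siz1-3, against 584, 598 and 555 in Col-0 after dehydration, and 11.2, 12.5 and 20.1 in siz1-3, against 20.1, 17.0 and 8.14 in Col-0 under control conditions (interaction -3.58 ± 0.23, adjusted p = 9.83e-06). All 3 were dim in both genotypes without dehydration.

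The chitinase gene CHI and its neighbour AT2G43580 differed in this respect. CHI was called higher in both conditions, with log2 fold changes of 2.46 after dehydration and 4.92 under control conditions, and an interaction of -2.47 ± 0.31 (adjusted p = 0.000531). AT2G43580 was at 3.17 after dehydration and -0.18 under control conditions, with an interaction of 3.35 ± 0.23 (adjusted p = 1.54e-05). XTH18 and XTH19, higher in siz1-3 after dehydration, were lower in siz1-3 under control conditions, at -0.89 ± 0.26 (adjusted p = 0.0318) and -1.27 ± 0.26 (adjusted p = 0.00464). The control call of XTH18 ended in 7 alternatives, 5 of which left out 1 control array, and that of XTH19 ended with a floor of 32, at -0.46 (adjusted p = 0.442). PUB22 also had opposite signs, at 1.27 after dehydration and -0.69 under control conditions, with an interaction of 1.96 ± 0.21 (adjusted p = 0.000215). ORA47, which was not called after dehydration, read 99.3, 111 and 78.8 in siz1-3, against 2196, 1323 and 1797 in Col-0 under control conditions, and its interaction was 4.33 ± 0.26 (adjusted p = 9.51e-06).

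**Figure D4:**
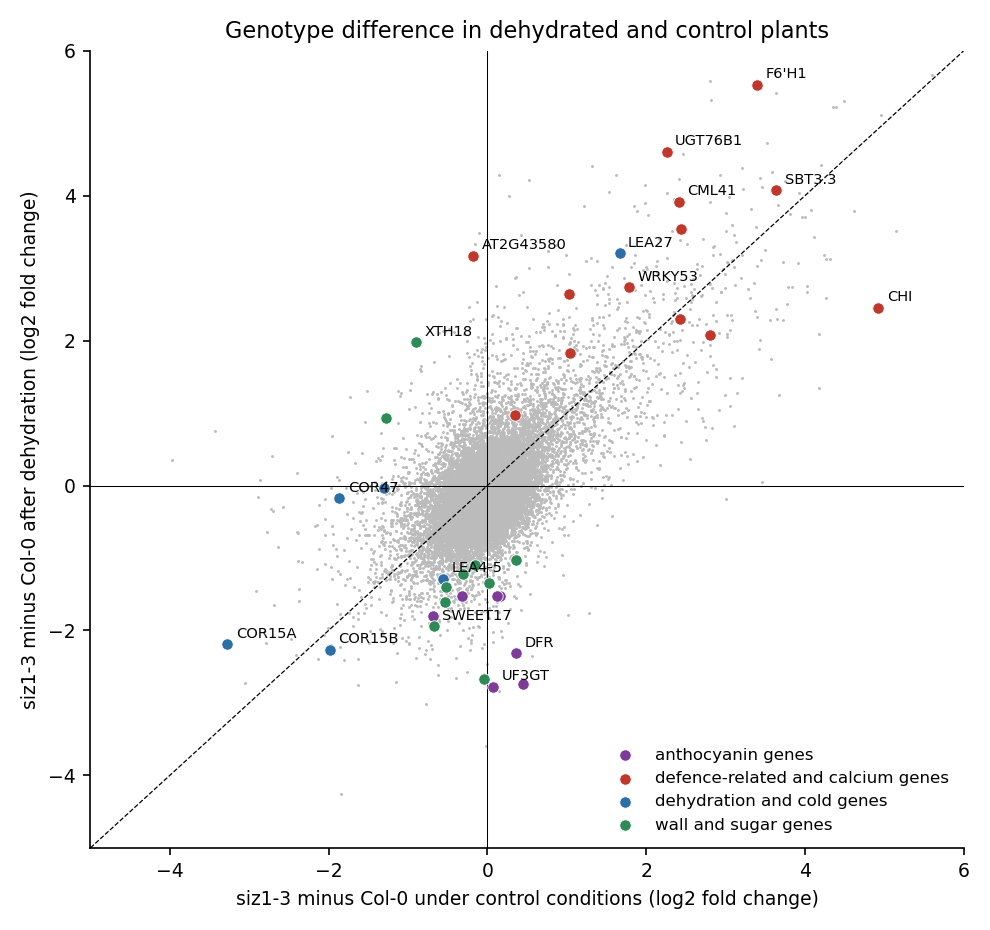
Log2 fold change of siz1-3 against Col-0 under control conditions (x axis) and after dehydration (y axis) for 22746 probe sets (grey), with genes of 4 kinds in colour. The dashed line marks equal differences. COR15A and COR15B lie low on both axes, while DFR and UF3GT lie low on the y axis and near 0 on the x axis.

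**Figure D5:**
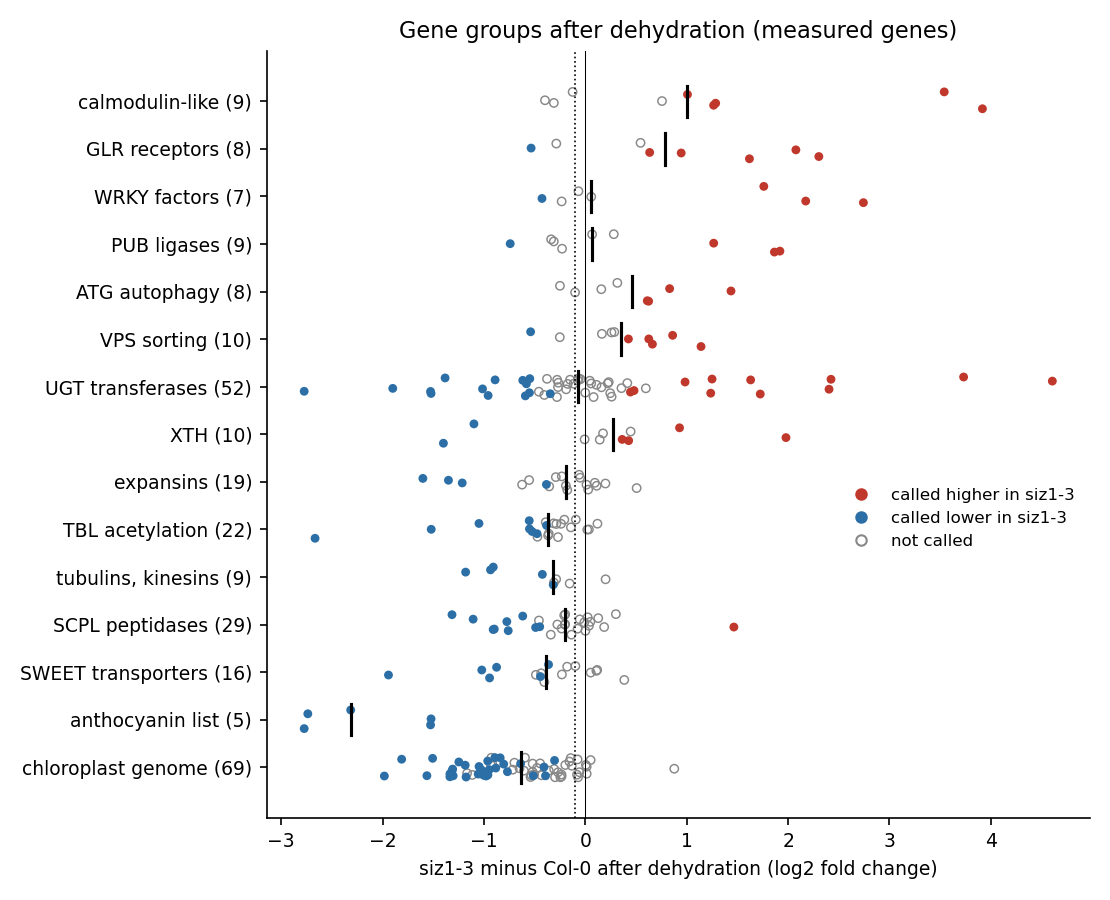
Log2 fold change of siz1-3 against Col-0 after dehydration for the measured genes of 15 groups (number in brackets). Filled points are called genes, red higher and blue lower, and open points are not called. Black bars are group medians and the dotted line is the median of all probe sets, -0.10.

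Genes often used as references were not called. The log2 fold change was -0.23 ± 0.13 (adjusted p = 0.211) for PEX4 (UBC21), -0.23 ± 0.12 (adjusted p = 0.16) for TIP41 and -0.37 ± 0.15 (adjusted p = 0.081) for SAND. SAND passed with a pseudocount of 64 (adjusted p = 0.0448), over the upper 60% of probe sets (0.0402) and without Col-0 dehydration replicate 3 (0.0247). All 3 lay below 0, as did the median of all probe sets.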

How the data were processed

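The authors deposited 1 intensity per probe set and array, linear and scaled to a trimmed mean of 250.02 when the top and bottom 2% are left out. The software that summarised the probes was not stated in the labels. RNA was extracted with TriZOL and labelled with MessageAmp II-Biotin Enhanced, per the labels' protocols. Of 22810 probe sets, 64 control probe sets were left out and 22746 tested. GEO's platform annotation gave 1 gene for 13513 of the 22746, several for 503 and none for 8730, which are unnamed here. Of 415 entries in the gene lists 55 were measured, and others may be read by the unnamed probe sets.

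Log2(intensity + 16) of the deposited values was fitted with limma 3.58.1 (R 4.3.3), lmFit and eBayes, with a mean for each of 4 groups over 12 arrays and 8 residual degrees of freedom. P-values were Benjamini-Hochberg adjusted over all tested probe sets, and further steps used Python 3.11.15, pandas 2.3.3 and scipy 1.17.1. On simulated data 87 of 100 probe sets changed by 1 on the log2 scale and 100 of 100 changed by 2 were called, beside 8 of 22546 unchanged. The noise was normal, and the changed probe sets were drawn only from those with a mean above the median. The recovery therefore does not cover dim probe sets. Far fewer probe sets were changed than the 7165 called in the data. The recovery and the calls among unchanged probe sets therefore do not carry over directly.

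The gene lists, and the comparison itself, were chosen with earlier results of these data known. Named genes are the 15 largest changes each way with groups that do not overlap, up to 6 members of each list, up to 4 of each family of at least 5 measured genes, and the 6 largest interactions each way. Patterns that define families were corrected after reading the annotation. CHIL, AT5MAT, BSMT1, JMT, CHI, SBT3.5, GLR2.7, GLR2.8, ATG8H, ATG8E, VPS60.1, SCPL27, CML38, TBL38, TBL25 and Hsp70-2 were chosen after their values were seen. For a gene with several probe sets, the one with the highest mean is given. Alternatives were 2 rescalings, pseudocounts of 1 and 64, a floor of 32, the upper 60% of probe sets, the 6 dehydrated arrays alone, a replicate block and leaving out each array.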

Additional observations from a re-analysis of the deposited data

Results flagged for a closer look

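For the genes here, the genotype difference after dehydration itself differed from that under control conditions by the interaction test, limma's adjusted p under 0.05. Values are the difference after dehydration minus that under control conditions, on the scale of log2(signal + 16). All were described for their change after dehydration or named for their interaction, so they are no sample of all genes.

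Genes with a more positive difference after dehydration included those for defence: F6'H1 (AT3G13610) at 2.14, UGT76B1 at 2.35, CML41 at 1.51, SAG101 at 0.79 and AT2G43580 at 3.35. The interaction of WRKY53, 0.95 (adjusted p = 0.0462), lost its call in 15 of 19 alternatives, with adjusted p up to 0.132. That of F6'H1 lost it with a pseudocount of 1 (adjusted p = 0.152). PUB22 stood at 1.96, and the autophagy genes ATG8H and ATG8E at 1.15 and 0.87. XTH18 was at 2.87 and XTH19 at 2.2 (adjusted p = 0.0547 with a floor of 32). Hormone and wax genes in this direction were ORA47 at 4.33, WES1 at 1.59 and DEWAX at 0.80, which lost its call without siz1-3 dehydration replicate 2 or 3 or Col-0 control replicate 1 (adjusted p up to 0.0616). AT1G76470, AT4G38410, AT4G27652 and AT4G22470 had 3.60, 3.48, 2.95 and 2.71. COR47, LTI30 and COR15A had 1.69, 1.27 and 1.09. COR15A was called lower in siz1-3 in both conditions, whereas COR47 and LTI30 were called lower under control conditions and not called after dehydration.

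Genes with a more negative difference after dehydration included the flavonoid genes UGT75C1 at -3.19, UF3GT at -2.85, DFR at -2.68, UGT78D2 at -1.68 and UGT78D1 at -1.64. Wall and growth genes were TBL26 at -2.62, EXPA4 at -1.37 and EXPA16 at -1.06. The sugar transporter genes SWEET1, SWEET17 and SWEET11 had -1.39, -1.27 and -1.12. WSD1 was at -1.58 and AT5G38130 at -3.58. CHI, at -2.47, and AT4G20000, at -2.83, were higher in siz1-3 in both conditions with a smaller excess after dehydration. AT4G20000 had log2 fold changes of 1.34 after dehydration and 4.17 under control conditions, the first lost with a floor of 32 (adjusted p = 0.34).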

How the results depend on the processing

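Of 127 gene results after dehydration 118 were called, and 107 of these kept call and direction in every alternative run. The other 11 lost the call in at least 1, 4 uncalled results passed in at least 1, and 2 changed sign. COR47, not called, was at 0.0584 after quantile normalization, and LTI30, not called, was at 0.086 there, at 0.0647 after subtraction of array medians, and between -0.0941 and 0.0426 without single arrays. The number of probe sets called after dehydration, 7165, was 6578 to 7550 under the rescalings and pseudocounts, 6483 with a floor of 32, and 5729 to 7224 without single arrays. Counts of lower calls moved most. Those at least 2-fold lower after dehydration, 737, were 1332 with a pseudocount of 1 and 374 with 64, and those at least 2-fold lower under control conditions, 402, were 202 with a pseudocount of 64. Interaction calls, 2003, ranged from 1270 to 1885 without single arrays. Those more positive, 874, were 564 with a pseudocount of 1 and 594 to 884 without single arrays. Those more negative, 1129, were 637 after subtraction of array medians and 670 to 1001 without single arrays, and those at least 2-fold more negative, 437, were 290 after that subtraction and 229 with a pseudocount of 64. With the replicate number as a block 6969 probe sets were called after dehydration. Same-numbered arrays of different groups correlated at -0.0443 to 0.132 in their deviations from group means. Between control and dehydrated arrays of one genotype, same-numbered pairs correlated at 0.0098 to 0.0529 and other-numbered pairs at -0.0458 to 0.00195. These low values do not settle whether the numbers pair the arrays, and the main fit treated them as unpaired. The cause of these shifts was not tested.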

Other observations

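Some probe sets without a gene name here differed strongly between the dehydrated genotypes. One unnamed probe set read 3272, 2605 and 3039 in dehydrated siz1-3, against 48.9, 35.2 and 56.3 in dehydrated Col-0, and another read 104, 150 and 154 in dehydrated siz1-3, against 1232, 1242.0 and 1133 in dehydrated Col-0. Among 5845 pairs of neighbouring genes (by their order in TAIR10.1) with both members measured, 39 had both at least 2-fold higher, 14 both at least 2-fold lower and 3 one of each. In 524 pairs at least 1 gene was 2-fold higher and in 352 at least 1 was 2-fold lower. Similar neighbours such as COR15B and COR15A may share signal, which was not tested.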
